A study of Mus musculus with 12 samples.

Results

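The AP-1 genes taken as members here were Fos, Fosb and Fosl2 of the Fos family, Jun, Junb and Jund of the Jun family, Atf3 of the ATF family and Maff of the small Maf family. These are 8 of 17658 genes with a single symbol on the arrays, measured by 13 of 46133 probes. They were chosen by gene family and with earlier results of these arrays known, including the differences between diets in heart and in skeletal muscle. The diet differences of the members are therefore given as a description only. The differences between heart and skeletal muscle were not what the choice was made on, but they come from the same arrays, so their p-values are not independent of it.

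Transcripts were measured in the heart and in the extensor digitorum longus, a fast skeletal muscle of the hind limb, of male C57BL/6 mice. In all groups the mice were 18 weeks old. The 3 high-iron mice received a diet with 2% carbonyl iron and the 3 control mice a diet with 0.02% iron, each for 6 weeks. Heart and skeletal muscle RNA was hybridized one sample per array, which gives 12 arrays in 4 groups of 3: high-iron heart, control heart, high-iron skeletal muscle and control skeletal muscle. RNA came from whole tissue, so more transcript per cell and more cells of an expressing type cannot be told apart.

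AP-1 is a dimeric transcription factor made of basic leucine zipper proteins. Fos proteins do not pair with each other and need a Jun partner to bind DNA, while Jun proteins can also pair with one another or with ATF proteins. Many of these genes are immediate early genes, whose mRNA rises within minutes of growth factor signals, contraction, stress or redox changes and is then quickly degraded. In heart and skeletal muscle they are known for brief induction by load, exercise and injury.

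The promoters of Fos, Jun and Atf3 are shown because these are the members with lower signals in high-iron than in control skeletal muscle that passed the test described below. Each sequence is the 250 bases before the annotated start (RefSeq, GRCm38.p6), written 5′ to 3′ on the strand of the gene. Capitals mark TGACG on either strand (the core of the cyclic AMP response element, also bound by Jun and ATF dimers) and TGANNTCA. The Fos window is at chr12:85473640-85473889 on the plus strand, the Jun window at chr4:95052223-95052472 on the minus strand and the Atf3 window at chr1:191183334-191183583 on the minus strand.
Fos: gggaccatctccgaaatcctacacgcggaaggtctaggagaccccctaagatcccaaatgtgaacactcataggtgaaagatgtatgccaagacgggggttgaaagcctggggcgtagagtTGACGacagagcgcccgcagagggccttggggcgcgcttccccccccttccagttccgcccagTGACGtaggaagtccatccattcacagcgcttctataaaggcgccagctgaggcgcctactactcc
Jun: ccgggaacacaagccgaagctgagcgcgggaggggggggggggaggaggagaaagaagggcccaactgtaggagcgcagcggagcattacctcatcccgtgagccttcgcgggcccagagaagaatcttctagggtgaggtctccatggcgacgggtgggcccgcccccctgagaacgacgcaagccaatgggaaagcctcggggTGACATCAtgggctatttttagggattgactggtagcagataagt
Atf3: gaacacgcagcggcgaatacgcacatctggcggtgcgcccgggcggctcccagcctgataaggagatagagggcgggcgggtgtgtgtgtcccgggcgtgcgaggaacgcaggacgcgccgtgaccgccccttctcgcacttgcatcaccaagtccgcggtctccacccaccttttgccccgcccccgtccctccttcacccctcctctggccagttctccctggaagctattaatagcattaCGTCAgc

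The Fos window held TGACG at 2 positions, and the last base of the nearer match lay 62 bases before the start. The Jun window held no TGACG but 1 TGACATCA, which ended 38 bases before the start. In Atf3 the single match, CGTCA on the strand of the gene, ended 3 bases before the start. TGACG was present in 6 of the 10 promoter windows of the members and in 17.8% of all 32851 windows of the same length, and TGANNTCA, which shares matches with TGACG where the letters are TGACGTCA, in 4 of 10 and in 11.9%. The 10 windows come from 8 genes, since Maff has 3, and Maff windows 2 and 3 each held both TGACG and TGANNTCA. TGANTCA, the classical AP-1 site, was searched on both strands as well and was in none of the 10 windows, against 6.75% of all windows. The CArG box (CC, 6 letters A or T, then GG) was also searched and was in none of the 10 windows, against 1.47%. Bases further upstream or after the start were not searched for any motif, so these absences hold for the windows only. The motifs were chosen after the promoter letters had been seen, and a match is a run of letters and not a measured binding site.

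The tissue labels were checked against marker genes before the members were compared. The summed signal of 8 ventricular cardiomyocyte genes was 234054 to 282638 on the heart arrays and 6769 to 16951 on the skeletal muscle arrays. That of 10 fast fibre genes was 8779 to 16582 on the heart arrays and 398778 to 423742 on the skeletal muscle arrays. Median signals before normalization were 182.9 to 337.2 per array. They followed the replicate number over both tissues and diets, with 281.4 to 337.2 for replicate 1, 251.4 to 282.5 for replicate 2 and 182.9 to 192.7 for replicate 3. The origin of this order was not tested. After quantile normalization the median of all probes was 256.7 and the 75th percentile 300.2, so that probes near these values lie close to the background, and no detection p-values were used.

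A pair of heart arrays, control replicate 2 and high-iron replicate 1, stood apart from the other heart arrays. Over all probes their median correlation with the other heart arrays was 0.93 for high-iron replicate 1 and 0.936 for control replicate 2, against 0.983 to 0.986 for the remaining arrays of either tissue. The study's methods state that some probes failed on a control and a high-iron heart array, without naming the arrays. The study left out those probes for these samples and kept the rest of both arrays. Its heart value for Fos came from 3 samples per diet. Control replicate 2 had the highest signal of the 3 control hearts for 7 of 8 members, all but Fosb, and for 41.2% of all probes. High-iron replicate 1 was the highest of the high-iron hearts for 41% of all probes, and its summed signal of 4 atrial genes was 53551, against 1343 and 1418 in the other high-iron hearts and 1353 to 4675 in control hearts. The comparisons of the members that use the hearts are therefore given with and without this pair.

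Fos encodes c-Fos, the founding member of its family. Its normalized signal was 861, 602.4 and 608.7 in high-iron hearts and 404.7, 732.1 and 294.3 in control hearts. In skeletal muscle it was 508.6, 498.6 and 693.4 in high-iron mice and 1612, 1188 and 774.1 in control mice. All 3 control skeletal muscles were above all high-iron skeletal muscles, and also above all control hearts. High-iron hearts overlapped both with control hearts and with high-iron skeletal muscles.

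By group mean the order of Fos was control skeletal muscle with 1191 ± 418.9, high-iron heart with 690.7 ± 147.5, high-iron skeletal muscle with 566.8 ± 109.7 and control heart with 477 ± 227.7 (SD, n = 3 mice each). The last 3 groups overlapped in their signals. The control groups of the 2 tissues therefore stood at the opposite ends of this order.

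**Figure D1:**
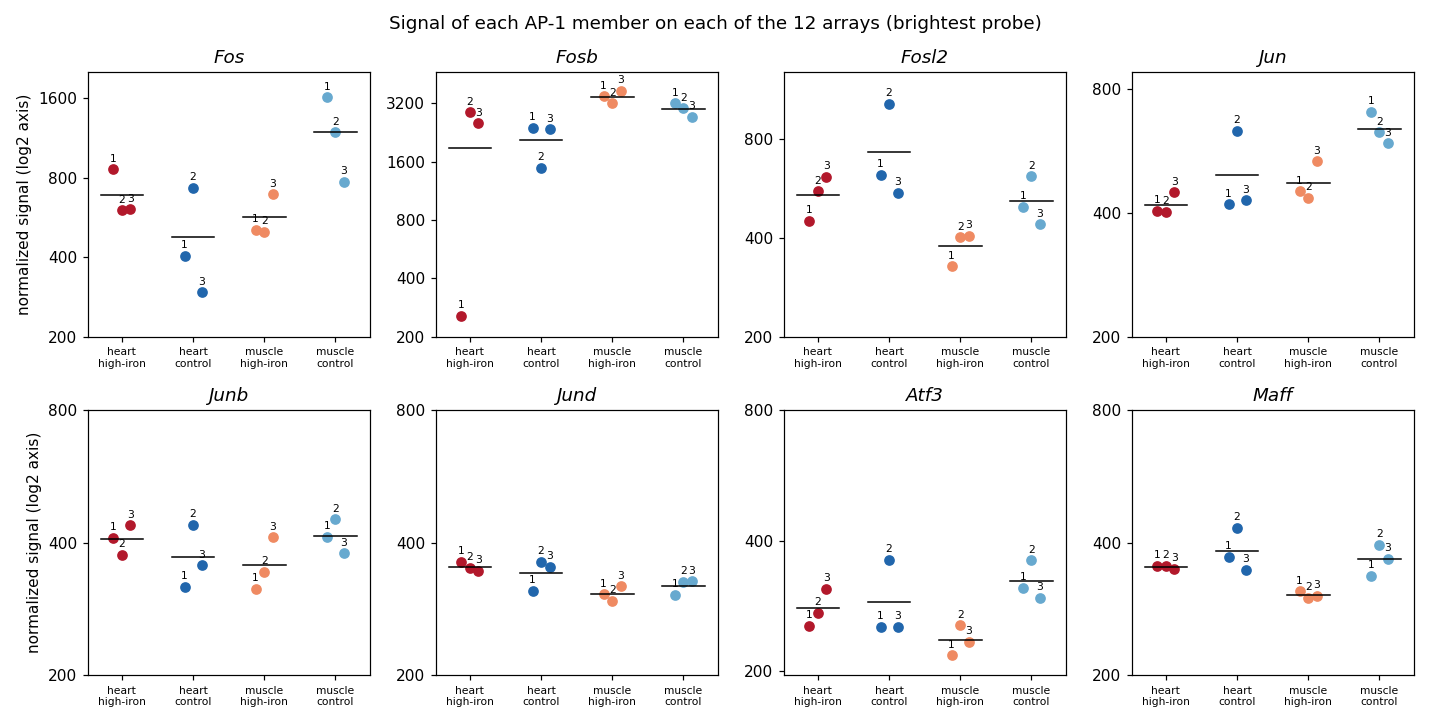
Normalized signal (log2 axis) of the brightest probe of each member on the 12 arrays, with the replicate number above each point and the group mean as a line. The 3 control skeletal muscles had the highest Fos signals of the skeletal muscle arrays (774.1 to 1612). Fosb was lowest on high-iron heart replicate 1 (255.9) and next lowest on control heart replicate 2 (1490).

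Fosb encodes FosB, which in neurons is known for a truncated, long-lived form. Its brighter probe gave 255.9, 2883 and 2529 in high-iron hearts and 2394, 1490 and 2347 in control hearts. In skeletal muscle it gave 3477, 3201 and 3723 in high-iron mice and 3197, 3021 and 2723 in control mice. The array at 255.9 is high-iron heart replicate 1, where this probe lay at the median of all probes. The next lowest signal, 1490, was on control heart replicate 2, the other array of the pair that stood apart. Whether this probe is among the failed probes was not tested. The second Fosb probe read 160.4 to 263.4 on all 12 arrays, below or near the median of all probes, so that the 2 probes disagree on whether Fosb was expressed above background.

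Fosl2 encodes Fra-2, a Fos family protein that lacks the strong transactivation domain of c-Fos. Its brightest probe read 450.6, 554.5 and 613.1 in high-iron hearts and 620.4, 1023 and 548.3 in control hearts. In skeletal muscle it read 327.5, 401.4 and 405.7 in high-iron mice and 497.2, 615.3 and 439.6 in control mice. High-iron skeletal muscle was the lowest group, and none of its arrays reached any other array of the series. The remaining Fosl2 probes were dim, with 245.2 to 308.4 and 170.5 to 213.3 over the 12 arrays.

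Jun encodes c-Jun, the most active of the Jun proteins. Its signal was 404.7, 402.9 and 448.2 in high-iron hearts and 419.3, 633.2 and 429.3 in control hearts, and only control replicate 2 lay outside the range of the high-iron hearts. In skeletal muscle it was 451, 435.3 and 533.4 in high-iron mice and 703.7, 627.6 and 589.6 in control mice, without overlap.

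Junb and Jund encode JunB and JunD, which are weaker activators than c-Jun and can oppose it in growth control. Junb read 410, 374.7 and 438.1 in high-iron hearts and 317.6, 438.5 and 355.4 in control hearts, with overlap. In skeletal muscle Junb read 314.2, 342.8 and 411.4 in high-iron mice and 411.6, 452 and 378.1 in control mice, again with overlap. A second Junb probe was dim on every array (173.7 to 217.5). Jund was the steadiest member, with 344.5 to 361.5 in high-iron hearts, 310.8 to 361.5 in control hearts, 295.4 to 318.4 in high-iron and 304.3 to 326.5 in control skeletal muscle.

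Atf3 encodes a stress-induced repressor that pairs with Jun proteins. Its signal was 254.4, 273 and 309.7 in high-iron hearts and 253.2, 360.7 and 253.3 in control hearts. In skeletal muscle it was 217.6, 255.2 and 234 in high-iron mice and 311, 359.9 and 295.1 in control mice, without overlap. These signals lie near the median of all probes, and all 3 high-iron skeletal muscles were below it.

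Maff encodes a small Maf protein, which has no transactivation domain of its own. Its brighter probe read 354.4, 354.6 and 348.8 in high-iron hearts and 371.3, 432.4 and 346.4 in control hearts. In skeletal muscle it read 309.8, 299.6 and 302.9 in high-iron mice and 336.6, 396 and 367 in control mice, without overlap. The second Maff probe was dim, at 214.1 to 284.8.

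**Figure D2:**
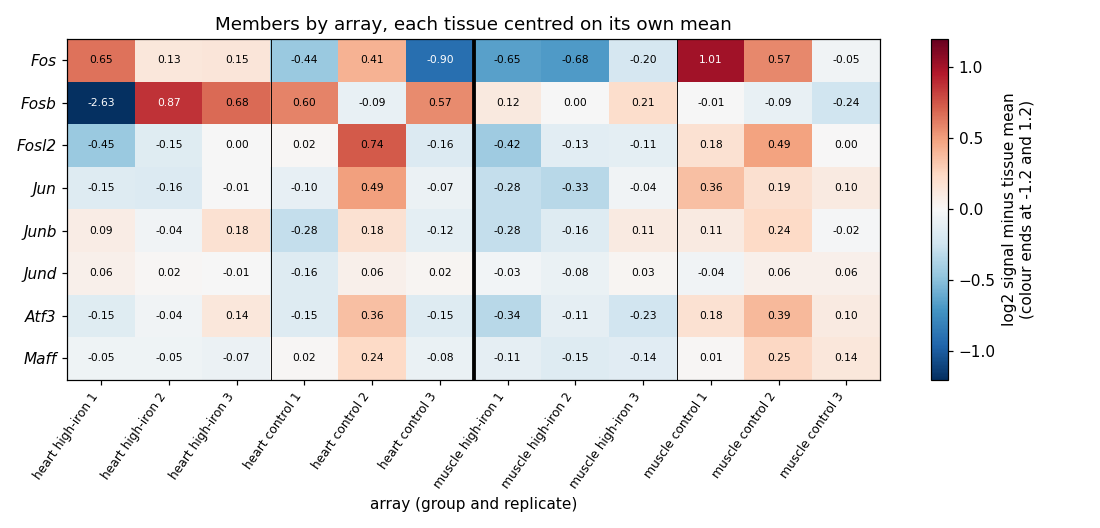
Log2 signal of each member on each array after subtracting the mean of the 6 arrays of the same tissue, with red for above and blue for below that mean. Fos reached 1.01 in control skeletal muscle replicate 1 and -0.90 in control heart replicate 3, while Jund stayed between -0.16 and 0.06.

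Heart and skeletal muscle were compared on each diet in one limma fit of the 12 arrays that took the mouse as a random effect, and Benjamini-Hochberg adjustment of p covered every probe. On the control diet Fos was lower in heart than in skeletal muscle, with a log2 difference of -1.36 (95% interval -1.93 to -0.80, SE 0.265, adjusted p = 0.00187), a 2.5-fold difference of the means. The 3 control skeletal muscles in this contrast are the arrays that also enter the diet difference known at the choice, so this p is not independent evidence. Fos was the only member called, 1 of 8 (12.5%), against 9.42% of all probes, of which 2413 were higher and 1932 lower in heart. Jun came next, at -0.40 (95% interval -0.66 to -0.13, adjusted p = 0.0582), and Fosl2 was at 0.46 (adjusted p = 0.145). The other members were between -0.55 for Fosb (adjusted p = 0.747) and 0.10 for Jund (adjusted p = 0.576). The median of the members was -0.17, and that of all probes was 0.00 to 2 decimals.

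The Fos difference kept its direction under each of 16 alternatives, between -1.08 and -1.76. It missed the threshold under 1 of them, a trended robust prior for the variances, with an adjusted p of 0.0548. Under that prior 1 member was still called, Jun instead of Fos. Without the pair of heart arrays that stood apart it was -1.72 (SE 0.166, adjusted p = 5.9e-09). Jun (-0.59, adjusted p = 9.4e-06), Fosb (-0.33, adjusted p = 0.00806) and Atf3 (-0.33, adjusted p = 0.00905) then also passed in the direction of lower signals in heart, while 5179 of all probes were called.

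On the high-iron diet none of the 8 members differed between heart and skeletal muscle at an adjusted p under 0.05 in limma, against 9.48% of all probes (2449 higher and 1925 lower in heart). Before adjustment, 4 members and 17% of all probes were under 0.05. The log2 difference of Fos was 0.28, with a 95% interval of -0.28 to 0.84 (adjusted p = 0.726). This interval lies above that of the control diet, but the difference between the 2 contrasts is the difference of the diet effects, which is described below. Jund at 0.20 (adjusted p = 0.0878), Fosl2 at 0.51 (adjusted p = 0.0903) and Maff at 0.21 (adjusted p = 0.127) had all 3 hearts above all 3 skeletal muscles. Fosb had all 3 hearts below, so 4 of 8 members did not overlap. The share of all probes without overlap between tissues was not computed, so nothing is read from that count. Fosb was at -1.49 (adjusted p = 0.141) with the array at 255.9 included, and at -0.36 (adjusted p = 0.00337) without the pair. Without the pair Fosl2 (0.62, adjusted p = 6.47e-05) and Atf3 (0.30, adjusted p = 0.0205) passed as higher in heart, and 5158 of all probes were called.

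Several cell type lists also differed between the tissues. On the control diet 4 of 6 endothelial and 4 of 5 macrophage genes were higher in heart and 3 of 6 fibroblast genes lower, against 9.42% of all probes called. On the high-iron diet these counts were 2, 5 and 3, against 9.48%. The fibroblast genes called were the collagen genes Col1a1, Col1a2 and Col3a1, and the others were not called. The summed fibroblast signal overlapped, at 11945 to 20173 in hearts and 15736 to 18283 in skeletal muscle. The summed endothelial signal was 6188 to 6506 in high-iron and 6291 to 6651 in control hearts, against 4548 to 4833 in high-iron and 4412 to 4752 in control skeletal muscle. The summed macrophage signal was 3309 to 4072 in high-iron and 3492 to 3691 in control hearts, against 1835 to 2495 in high-iron and 2053 to 2456 in control skeletal muscle. The part of cell composition in the tissue differences of the members was not tested.

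**Figure D3:**
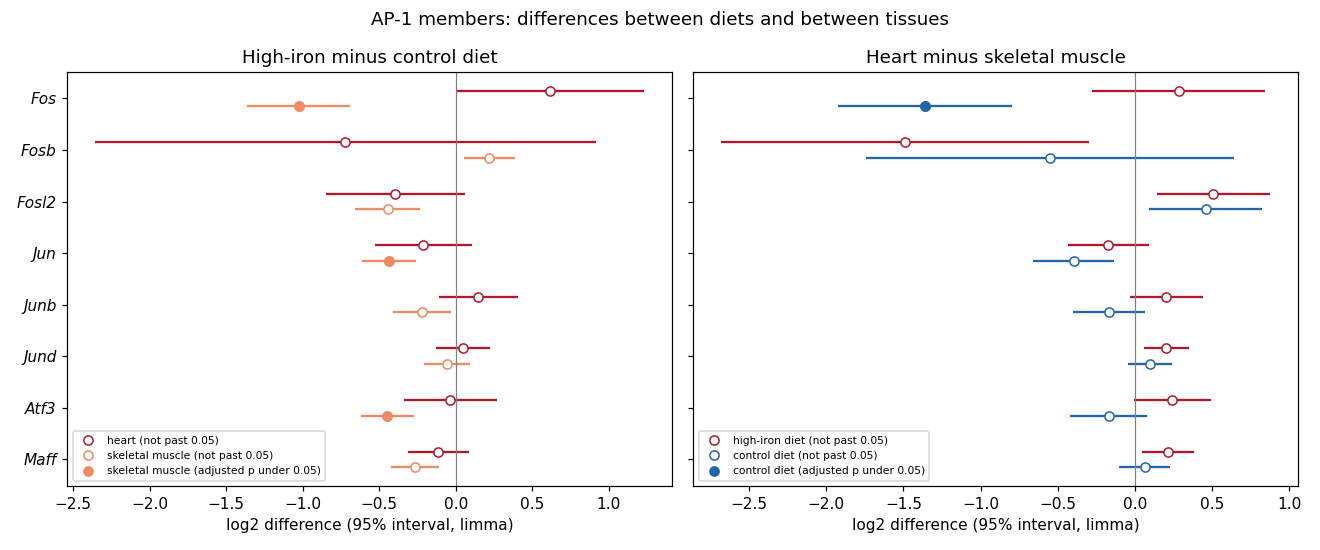
Log2 differences of the members with 95% intervals from limma, between diets within each tissue (left) and between heart and skeletal muscle on each diet (right). Filled points passed an adjusted p of 0.05: Fos, Jun and Atf3 between diets in skeletal muscle, and Fos between tissues on the control diet.

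The diet differences that follow describe values that were known when the members were chosen, and nothing is read from their number. In skeletal muscle 3 of 8 members (37.5%) were called lower on the high-iron diet in limma over the 6 arrays, against 0.0997% of all probes (10 higher and 36 lower). The log2 difference was -1.03 for Fos (SE 0.163, adjusted p = 0.0045), -0.45 for Atf3 (SE 0.0832, adjusted p = 0.0259) and -0.44 for Jun (SE 0.0854, adjusted p = 0.0428). As ratios of means these are 2.1-, 1.37- and 1.35-fold lower signals. Fosl2 had the same size as Atf3 and Jun, -0.44, with a larger spread (SE 0.102, adjusted p = 0.139). Maff was at -0.27 (adjusted p = 0.445), Junb at -0.22 (adjusted p = 0.923), Jund at -0.06 (adjusted p = 0.995) and Fosb at 0.22 (adjusted p = 0.817). For 6 of 8 members, 5 lower and Fosb higher, all high-iron arrays lay on one side of all control arrays, against 10.2% of all probes. The dim second Fosb probe went the other way, with a log2 difference of -0.34 (adjusted p = 0.359) and no overlap, so the direction of Fosb depended on the probe. The dim other probes of Fosl2 (0.02 and 0.03) and Maff (-0.01) did not show the lower signal, and their arrays overlapped.

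These calls did not hold under every setting. Without high-iron skeletal muscle replicate 1 none of the members passed (Fos -0.96, adjusted p = 0.143), and without control replicate 2 only Fos did (-0.996, adjusted p = 0.0454). Scaling to one median left all 3 at an adjusted p of 1, with log2 differences of -1.04 for Fos, -0.46 for Atf3 and -0.43 for Jun. Under the trended robust prior Fos lost its call (adjusted p = 0.939) and Jun and Atf3 kept theirs (adjusted p = 0.0101 and 0.00639).

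Within the skeletal muscle groups the arrays shared an order over several members. High-iron replicate 3 was the highest of its group for 6 of 8 members, against 34.9% of all probes, and control replicate 3 the lowest of its group for 6 of 8, against 33.6% of all probes. For Fos this placed high-iron replicate 3 at 693.4 and control replicate 3 at 774.1, the closest arrays of the 2 diets.

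Heat shock genes, most of which encode chaperones, and 2 of 6 neutrophil genes differed between the diets on the same skeletal muscle arrays. The summed signal of 11 heat shock genes was 37716 to 38476 in high-iron and 49741 to 52750 in control skeletal muscle, and 6 of the 11 were called lower, among them Hsp90aa1 (-0.93), Hsph1 (-0.82) and Serpinh1 (-0.71). The summed signal of 6 neutrophil genes was 1743 to 2539 in high-iron and 1487 to 1578 in control skeletal muscle, and S100a8 (1.18) and S100a9 (0.94) were called higher, while Ltf (0.15), Ngp (0.02), Camp (-0.01) and Mpo (-0.05) were not called. The part of either in the values of the AP-1 genes was not tested.

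In heart no member and no probe was called between diets in limma over the 6 arrays (0%, smallest adjusted p = 0.287), while 1180 probes and 1 member were under 0.05 before adjustment. With a trended robust prior 2 probes were called, with a single fit over all groups 5 and with array quality weights 0, and no member was among them. Fos was at 0.62 (SE 0.274, 95% interval 0.01 to 1.23), a 1.45-fold higher mean on the high-iron diet with overlapping arrays. Fosl2 was at -0.39, Fosb at -0.72 and Jun at -0.21, and the remaining members were between -0.11 and 0.15. For none of the 8 members were the 3 high-iron hearts all on one side of the 3 control hearts, against 7.79% of all probes.

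Without the pair of heart arrays, Fos was higher on the high-iron diet by 0.81 (SE 0.113, adjusted p = 0.00429), with means of 605.6 in 2 high-iron hearts and 349.5 in 2 control hearts, 1.73-fold. Fos was then the only member among 28 probes called. Over 16 alternatives the Fos difference in heart kept its direction, between 0.32 and 0.98. Leaving out the pair was the only 1 of them past the threshold. The pair holds the highest Fos signal of each heart group, 732.1 in control and 861 in high-iron hearts. Fosl2 and Jun were both at 0.00 to 2 decimals without the pair. Leaving out control replicate 2 alone, their highest heart array, gave -0.12 for Fosl2 and -0.02 for Jun, and leaving out high-iron replicate 1 alone gave -0.27 and -0.19. On control replicate 2 the summed heat shock signal was 89836, against 53700 and 54923 in the other control hearts and 47261 to 56752 in high-iron hearts.

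For the difference of the diet effects, heart minus skeletal muscle, no probe passed in limma over the 12 arrays (0%, smallest adjusted p = 0.514, 1547 probes and 3 members at an unadjusted p under 0.05). With a trended robust prior 1 probe was called. Fos had a difference of 1.64 (95% interval 0.85 to 2.44, unadjusted p = 0.000463, adjusted p = 1), Atf3 0.41 and Junb 0.37. Without the pair of heart arrays 8 probes were called, Fos among them with 1.82 (SE 0.235, adjusted p = 0.00162), while Atf3 was at 0.63 (adjusted p = 0.116). This was the only 1 of 21 alternatives under which Fos passed. Both diet contrasts are part of this difference, so it too is a description.

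The members differed in their spread among mice of one group. The SD of Fos about the group means was 0.47 on the log2 scale, larger than that of 99.4% of all probes, and in skeletal muscle alone 0.42, larger than 99.9%. With the pair of heart arrays included Fosb was at 1.00. Fosl2 was at 0.30, Jun at 0.20, Atf3 at 0.19 and Junb at 0.18. For these and Fos, 6 of the 8 members, the SD was above that of 95% of all probes. That count fell to 3 of 8 (Fos, Fosl2 and Junb) both without the pair of heart arrays and in skeletal muscle alone, where the SD of Jun exceeded that of 91.5% of probes, that of Atf3 87.3% and that of Fosb 75.6%. Maff (0.10) and Jund (0.07) had a spread like that of the median probe (0.0993) or below it. These percentages compare the members with probes of every signal, whose median of 256.7 lies close to the background. In the plotted subset of probes, brighter probes tended to have a larger SD. Whether a member varied more than probes of similar brightness was not tested.

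**Figure D4:**
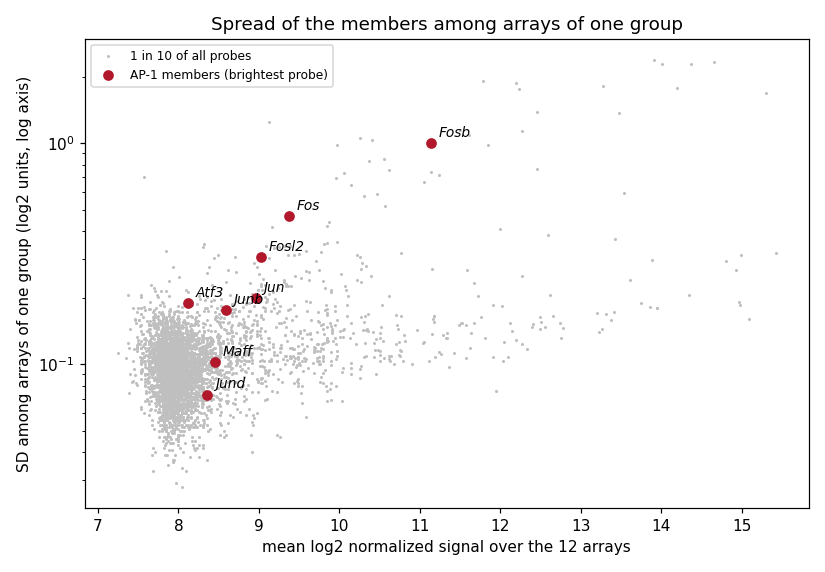
SD among arrays of one group (log2 units, log axis) against mean log2 signal over the 12 arrays, for a regular subset of all probes in grey and the 8 members in red. Fosb (1.00), Fos (0.47) and Fosl2 (0.30) lie far above the median probe (0.0993), and Jund (0.07) lies below it.

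After the mean of each tissue was subtracted, the members other than Fosb tended to deviate together over the 12 arrays. Pearson's r was 0.21 to 0.88 over the 21 pairs without Fosb, with a median of 0.67, and was highest for Fosl2 with Atf3 (0.88). Without the pair of heart arrays the median was 0.69. By tissue the median was 0.49 over the 6 heart arrays and 0.78 over the 6 skeletal muscle arrays, with Fos and Jun at 0.27 in heart and 0.97 in skeletal muscle, and Fos and Fosl2 at 0.12 in heart and 0.81 in skeletal muscle. Whether the tissues differ beyond chance was not tested. With Fosb included the 28 pairs ran from -0.42 to 0.88. These arrays share the diet, the mouse and the array signal, and the values are a description without a test.

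The genes most like Fos by the same measure, among 12081 candidates above the median signal, were Edn1 (r = 0.96), Tent4a (0.94), Wsb1 (0.93) and Plk3 (0.93). Edn1 encodes the vasoconstrictor peptide endothelin-1, and its signal of 267.6 to 369.9 covered a far narrower range than that of Fos. The list of 10 also held Dusp1 (0.87), the immediate early phosphatase that inactivates MAP kinases, at 2863 to 5134. The genes most like Jun were the chaperone gene Dnajb1 (0.92), the rhythmically expressed gene Noct (0.92) and Bzw1 (0.92), with Id1 (0.90) and Id3 (0.89), inhibitors of basic helix-loop-helix factors, and Egr2 (0.88) among the 10. Dnajb1 covered 570.5 to 5293 and had its highest signal, like Jun in heart, in control heart replicate 2. Without the pair of heart arrays the 4 genes named first for Fos stayed at ranks 2 to 5 (r = 0.93 to 0.95), while Dnajb1 was at rank 38 for Jun (0.89), Noct at 49, Id1 at 65, Egr2 at 118 and Id3 at 180. Ranks also fell for other genes of the Fos list, such as Ttll5 (34) and Stx2 (45). The correlations with Jun went from 0.92 to 0.89 for Dnajb1 and from 0.89 to 0.79 for Id3. In skeletal muscle alone, which holds no array of the pair, they were 0.91 and 0.93. The order of the genes most like Jun thus depended in part on that pair. Since these are the highest of many correlations, no p is given.

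The arrays also held 13 other AP-1 basic leucine zipper genes, among them Fosl1 of the Fos family (dim, 184.6 to 230.3) and further Maf, Batf and Jun dimerization genes. Only Mafg, a small Maf gene, was called between tissues, lower in heart by 0.48 on the high-iron diet and by 0.59 on the control diet. None was called between diets in either tissue. Their median log2 difference between diets was 0.03 in heart and 0.02 in skeletal muscle. Among 11 ATF and CREB genes, Atf4, the effector of the integrated stress response, was lower in heart on both diets (-0.81 on the high-iron and -0.68 on the control diet), and Atf5 (-0.40) on the high-iron diet. None was called between diets.

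The kinases that lead to AP-1 differed between tissues and not detectably between diets. Of 14 MAP kinase pathway genes, 2 were higher and 7 lower in heart on the high-iron diet, and 2 higher and 6 lower on the control diet. Map2k3, an activator of p38, was lower in heart by 1.10 on the high-iron and by 1.16 on the control diet, and Map2k4, an activator of JNK and p38, by 0.76 and 0.85. Of 7 genes for serum response factor and its partners, Myocd, the cardiac and smooth muscle coactivator, was higher in heart by 2.28 on the high-iron and by 2.33 on the control diet. Mrtfa was lower in heart on both diets (-0.81 and -0.89), and Srf itself was higher in heart on the high-iron diet (0.51). No gene of these lists was called between diets in heart or skeletal muscle.

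Of 15 textbook AP-1 targets none was called between diets, with medians of -0.05 in heart and -0.10 in skeletal muscle. Between tissues 1 was higher and 2 lower in heart on the high-iron diet and 2 higher and 2 lower on the control diet. Ccnd1, which encodes cyclin D1, was higher in heart by 1.88 on the high-iron and by 1.78 on the control diet, and Plau, which encodes urokinase, was lower by 0.74 and 0.64.

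Of 16 other immediate early genes, Klf4, a zinc finger factor, was the only one called between diets, lower in high-iron skeletal muscle (-0.71, adjusted p = 0.00076), and none was called in heart. Their median was 0.03 in heart and -0.09 in skeletal muscle. Between tissues Ier3 was higher in heart on both diets (0.81 on the high-iron and 1.12 on the control diet), Klf6 on the high-iron diet (0.63), and Egr3 was lower in heart on the control diet (-1.03). Their summed signal was 11345 to 14346 in high-iron hearts and 10286 to 16876 in control hearts, with the highest value again in control replicate 2, and 9538 to 12683 in high-iron and 11173 to 14229 in control skeletal muscle.

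Without the pair of heart arrays the counts between tissues and between diets in heart were the same for the other AP-1 basic leucine zipper genes, the MAP kinase genes, the serum response factor genes and the AP-1 targets. Among ATF and CREB genes 3 were then called lower in heart on each diet, with Creb3 on both and Ddit3 on the control diet added. Among the other immediate early genes 3 were higher and 1 lower in heart on the high-iron diet and 1 higher and 4 lower on the control diet. In heart Egr1, a zinc finger immediate early gene, was then called higher on the high-iron diet by 0.53 (adjusted p = 0.0226).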

How the data were processed

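RNA of heart and extensor digitorum longus was labelled and hybridized by the authors to Illumina Sentrix Mouse-6 BeadChips, 12 arrays on 2 chips. Which chip held which array is not given in the sources used here, so a chip effect was not tested. The deposited sample files hold signal intensity per probe as read with BeadStudio, before normalization, and the authors' series table holds intensity after their quantile normalization, used here only as an alternative. Intensities were quantile normalized over the 12 arrays and taken to log2 without an offset in R 4.3.3. No background was subtracted beyond that of the deposited values, so differences of dim probes are compressed.

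Tests were two-sided moderated fits in limma 3.58.1 (lmFit, then eBayes). All 46133 probes entered the Benjamini-Hochberg adjustment, with a threshold of 0.05. Diets were compared within each tissue. Tissue contrasts used the 12 arrays, with mouse as a random effect through duplicateCorrelation (0.0717, statmod 1.5.0). Heart and skeletal muscle of one diet and number were assumed to come from 1 mouse: the series design names 3 biological replicates per group, but does not tie the numbers across tissues. Their deviations from the group means correlated by only 0.0262 to 0.0998. A gene is given by its brightest probe and other probes are named beside it. Scripts were tested on simulated data.

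The members, gene lists and tests were chosen with earlier results of these data known. The spread, correlations and lists without the pair of heart arrays were added after the data were seen. Every probe of every member is named. Beyond these, up to 3 genes of smallest p per list and contrast among those called, and the 10 genes most correlated with Fos and with Jun, were eligible to be named. Fosl1 is named as a Fos family gene outside the members. Of 164 list entries 140 were matched to a probe, and unmatched ones include older symbols of matched genes. Promoters are from RefSeq (GRCm38.p6), found for all 8 members. No genome was used. The number of arrays limits the precision. The p-values do not reflect the spread among the 3 mice per group alone, since limma drew each variance toward that of all probes. In skeletal muscle the SD of Fos was 0.42, against 0.0872 for the median probe. For members of large spread, such as Fos, the SE and p therefore understate the spread among mice.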

Additional observations from a re-analysis of the deposited data

How the results depend on the processing

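Between heart and skeletal muscle on the control diet 1 member was called, and 2 with array quality weights, 3 with the mouse as a fixed replicate block (Fos, Fosb and Fosl2), 4 without the pair of heart arrays and 1 to 3 when single arrays were left out (3 without control heart replicate 2, with Jun and Atf3, and 2 without control heart replicate 3, with Fosl2). On the high-iron diet none was called, and 2 in the authors' table (Jund and Maff), 1 without dim probes (Jund), 1 with array weights (Fosl2), 1 with the fixed replicate block (Fosl2), 3 without the pair and 0 to 1 with single arrays left out (Fosl2 without high-iron heart replicate 1, Fosb without replicate 2 or 3). With no replicate block, which drops the assumed pairing of tissues by mouse, the counts stayed at 1 and 0 (Fos, control diet, adjusted p = 0.00291). With the trended robust prior the control diet count also stayed at 1, but the member called was Jun and not Fos. Between diets in heart 0 were called and 1 without the pair, and 0 under the replicate block. In skeletal muscle 3 were called, and 0 after median scaling, 0 after normexp background correction, 1 without dim probes, 0 in a single fit over the 4 groups and 0 to 4 with single arrays left out (0 without high-iron replicate 1, 1 without control replicate 2). The replicate block called 4, adding Fosl2 (adjusted p = 0.04). No source used here ties the numbers across diets, but median signals before normalization fell from replicate 1 to replicate 3 in each group. Deviations from the group means of same-numbered arrays correlated by -0.54 to 0.49 in heart and by 0.02 to 0.10 in skeletal muscle. For the difference of diet effects 0 were called and 1 without the pair. The causes were not tested.

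Over all probes, the 46 calls between diets in skeletal muscle became 0 after median scaling, 0 after normexp, 2 in the single fit, 74 with an offset of 50, 77 with the replicate block and 27 without high-iron replicate 1. Signs turned only for values past no threshold. Between tissues on the control diet Maff, at 0.062, was -0.0215 without the pair and -0.0236 (without control heart replicate 2) to 0.132 with single arrays left out. Dim second probes turned Fosl2 to -0.0705 on the control diet and -0.0881 on the high-iron diet, and Fosb to 0.0318 on the high-iron diet, and Fosb between diets in skeletal muscle, at 0.22, to -0.337. Between diets in skeletal muscle the dim Fosl2 probes were at 0.0166 and 0.0309, against -0.44 for the brightest. Several member signals lie near the median of all probes, which limits what their differences can show.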
